A study of Mus musculus with 56 samples.

Results

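The daily transcript rhythm of gastrocnemius, a calf muscle made mostly of fast fibres, was described in mice that were fed in the light phase alone. All 28 libraries of daytime-restricted feeding (DRF) were taken, of 56 libraries in the series. The other 28 came from nighttime-restricted feeding (NRF), in which food was given in the dark phase, the usual active and eating phase of mice. Each regimen was sampled every 4 h from ZT0 to ZT24 (zeitgeber time, hours from lights on), with 4 libraries at each of 7 times. ZT24 is the same time of day as ZT0. Mice of both regimens were group-housed female C57BL/6J animals free of specific pathogens, kept under a 12 h light and 12 h dark cycle and aged 9 weeks. They ate chow freely for 7 days before 7 days of restricted feeding. The labels do not say whether the 4 libraries of a time came from separate animals, so the p-values below measure the spread between these libraries.

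In muscle, as in most tissues, a molecular clock drives daily transcription: ARNTL and CLOCK activate genes whose products, among them the PER proteins and the REV-ERB receptor NR1D1, later repress them. Feeding and fasting act on muscle transcripts as well, through insulin, the FoxO factors, the PPAR receptors and amino acid supply. Making ribosomes and proteins is among the costliest tasks of a cell and is widely tied to nutrients and time of day, while splicing factors and chromatin regulators set how transcripts are made and processed.

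The DRF libraries held 28859552 to 36183624 recovered reads over the genes of the table and detected 15366 to 15960 genes. Levels are CPM, counts per 1000000 of the library size that the authors' values imply, which was 0.854 to 1.17 times the recovered total. The 10 most abundant genes, all of contraction or energy supply in muscle fibres, took 20.3% to 32.8% of a library's reads, with medians of 25.02% at ZT0 and 30.2% at ZT20. The 8 muscle fibre markers summed to 115217 to 270377 CPM in every DRF library, while the adipocyte, red blood cell, endothelial, macrophage, fibroblast, satellite cell, Schwann cell and smooth muscle markers were detected at far lower levels. Of those other markers, Cnn1 of smooth muscle alone averaged under 1 CPM. The clock genes followed the time labels: Arntl peaked at ZT22.6, Dbp at ZT10.9 and Per2 at ZT13.0 in DRF. Nr1d1 peaked at ZT5.97. The counts of Dbp and Nr1d1 were not whole numbers, so both are uncertain. In bulk tissue, fewer cells of a type and less RNA per cell cannot be told apart.

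Some DRF libraries stood apart from the others of their time in gene length and base composition. The mean log2 deviation of the 20% longest genes minus that of the 20% shortest was -0.43 in replicate 1 of ZT20 and -0.24 in replicate 4 of ZT24, while the other 3 libraries of ZT24 lay at 0.01 to 0.02. In the same 2 libraries the 20% of genes highest in GC content exceeded the 20% lowest by 0.76 and 0.41. Counts below are therefore also given without these 2 libraries where they moved. Replicate 3 of ZT16 had like values, -0.25 and 0.41, and was kept. The other libraries of ZT16 lay at -0.16 to 0.04 for length. NRF held such a library too. Its replicate 4 of ZT20 lay at 0.61 for GC content, where the other NRF libraries of ZT20 lay at -0.15 to -0.01. No 2 libraries of a time were near-identical: the chi-square per gene between replicates was 12.0 or more.

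A 24 h cosine was fitted to log2(CPM + 1) of each of 11995 genes with a mean of at least 1 CPM, and 5348 genes, or 44.6%, passed at a limma adjusted p under 0.05. Their fitted peaks crowded into 2 windows. From ZT4 to ZT8, in the light and feeding phase, lay 1268 genes (10.6% of the tested genes), and from ZT14 to ZT18, early in the night-time fast, lay 1389 (11.6%). These are 23.7% and 26.0% of the rhythmic genes, where each window spans 16.7% of the day. By the hour, 360 genes peaked in the hour from ZT5 and 342 in that from ZT6, and 405 and 437 in the hours from ZT15 and ZT16. The fewest between the crowds were 115 in the hour from ZT10, and 114 in the hour from ZT19 was the low point of the night. The windows were read from these same peaks, so the crowds are a description and carry no test.

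**Figure D1:**
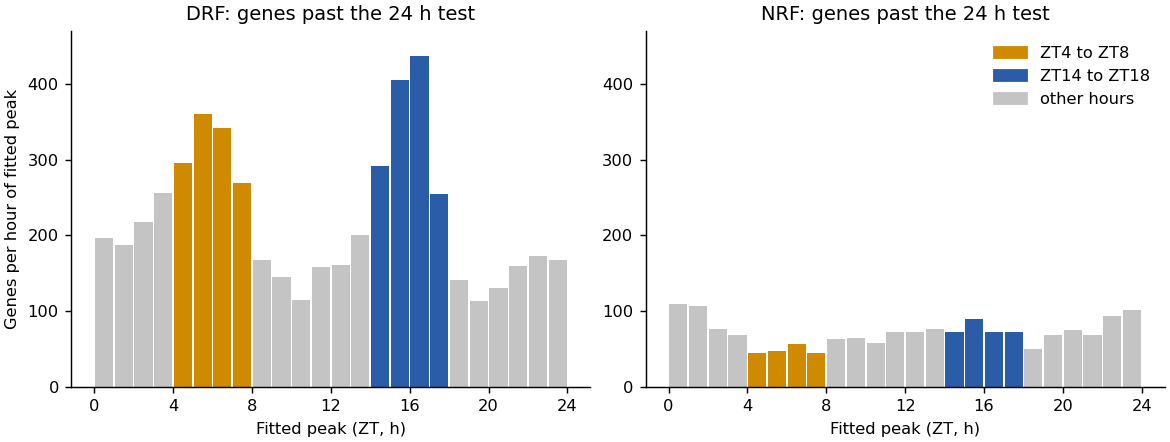
Number of genes past the 24 h test per hour of fitted peak (ZT, hours), in DRF on the left and NRF on the right, with the ZT4 to ZT8 and ZT14 to ZT18 windows in colour. The DRF hours reach 360 genes from ZT5 and 437 genes from ZT16.

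The rhythms were small. The fitted peak-to-trough (highest minus lowest point of the cosine, in log2 units) had a median of 0.47 in the ZT4 to ZT8 genes and 0.32 in the ZT14 to ZT18 genes, beside 0.39 in the 2691 rhythmic genes with other peaks and 0.26 in all tested genes. It was at least 1 in 42 of the ZT4 to ZT8 genes and 32 of the ZT14 to ZT18 genes, against 186 of the genes that peaked elsewhere. The edges of the windows were not gaps: 139 genes peaked in the first 0.5 h after ZT4 and 118 in the 0.5 h before it, 139 in the 0.5 h after ZT14 and 106 before it. On either side of the threshold, the 465 genes with an adjusted p from 0.04 to 0.05 had a median peak-to-trough of 0.29, and the 346 from 0.05 to 0.06 had 0.27.

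The place of the crowds depends on the scaling of the libraries. Scaled to total recovered reads, 5940 genes (49.5%) passed, 2612 of them from ZT4 to ZT8 (21.8% of those tested) and 227 from ZT14 to ZT18 (1.89%), or 44.0% and 3.82% of the rhythmic genes. Under that scaling the median gene itself follows a cosine that peaks at ZT3.90 and spans 0.18 log2 units. The windows below are therefore levels relative to the authors' library size, by which the median gene stays nearly level. The ratio of that size to the recovered total had medians of 1.05 at ZT0, 0.901 at ZT16 and 0.911 at ZT20, where the 10 most abundant genes took medians of 25.02%, 29.0% and 30.2% of reads.

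Among the ZT4 to ZT8 genes, the largest rhythms included a transporter and signalling genes. Slc16a6, a carrier of the monocarboxylate transporter family, had 8.52, 11.1, 11.5 and 11.4 CPM at ZT0, 15.9, 14.6, 15.6 and 18.1 at ZT4 and 19.5, 16.2, 24.1 and 20.7 at ZT8. It had 13.9, 12.9, 12.3 and 11.6 CPM at ZT12, 7.27, 9.71, 8.64 and 9.05 at ZT16, 7.82, 8.54, 7.66 and 7.04 at ZT20 and 8.47, 7.92, 8.68 and 9.68 at ZT24. All 4 libraries of ZT8 lay above all those of ZT12 to ZT24 and of ZT0. Its peak-to-trough was 1.27 ± 0.10 (SE, n = 28) with a peak at ZT7.30 ± 0.265 h (limma adjusted p = 1.03e-09). In NRF the value was 0.15 (adjusted p = 0.636), and the regimens differed (adjusted p = 4.65e-07). The gene lies at chr11:109450855-109473598 (GRCm38.p6).

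Tnfaip2, induced by tumour necrosis factor, held 83.0, 90.04, 69.7 and 112 CPM at ZT4 and 35.8, 24.5, 27.0 and 24.98 at ZT16 in DRF. The libraries of ZT4 all lay above those of ZT16. It had a peak-to-trough of 1.46 ± 0.22 and a peak at ZT7.02 (limma adjusted p = 7.62e-05), against 1.93 and ZT3.82 in NRF (adjusted p of the difference = 0.00333). Prkg1, a kinase activated by cyclic GMP, had 30.5, 47.1, 58.5 and 38.1 CPM at ZT0 and 19.6, 16.4, 4.66 and 12.4 at ZT16, groups that did not overlap. At ZT24, the same time of day as ZT0, Prkg1 had 26.8, 23.9, 26.3 and 21.6 CPM, all below the libraries of ZT0. Its peak-to-trough was 1.37 ± 0.29 at ZT4.43 (adjusted p = 0.0022). Dach2, a nuclear factor, was low, with 4.19, 3.83, 6.74 and 1.76 CPM at ZT0 and 1.53, 0.388, 0.524 and 0.966 at ZT20. Its peak-to-trough was 1.28 ± 0.30 at ZT4.21 (adjusted p = 0.00443).

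A fitted peak does not always mark the highest time. G0s2, whose product inhibits the triglyceride lipase ATGL, had 6.09, 12.6, 13.3 and 14.9 CPM at ZT0, 68.2, 47.3, 60.6 and 68.8 at ZT4 and 22.5, 8.52, 33.9 and 13.7 at ZT8. The 4 libraries of ZT4 stood above all others of DRF, while the cosine put the peak at ZT7.27 with a peak-to-trough of 1.55 ± 0.42 (limma adjusted p = 0.0149; 0.0799 with an added linear trend in time). In NRF its fitted peak was at ZT20.0 (adjusted p of the difference = 0.000622). Dusp10, a phosphatase of stress-activated MAP kinases, averaged 34.3 ± 17.4, 76.4 ± 10.3, 68.4 ± 7.10, 51.9 ± 12.1, 18.6 ± 5.34, 61.1 ± 12.2 and 39.4 ± 4.21 CPM (SD, n = 4 each) from ZT0 to ZT24. It was high at ZT4 and ZT8 and again at ZT20, with a low at ZT16, and its fitted peak-to-trough was 1.26 ± 0.34 at ZT5.94 (adjusted p = 0.0151).

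SR proteins, hnRNPs and chromatin regulators had called members from ZT4 to ZT8 and none from ZT14 to ZT18. Of 30 tested SR proteins and hnRNPs, which bind pre-messenger RNA and steer splicing, 21 were rhythmic, 13 of them from ZT4 to ZT8 and 0 from ZT14 to ZT18 (also 0 at an unadjusted p under 0.05 in limma). Their 13 peak-to-trough values ran between 0.28 and 0.62, with a median of 0.41. Srsf1, an SR protein that promotes exon inclusion, had 90.2, 85.1, 90.1 and 95.1 CPM at ZT0, 99.8, 68.9, 84.2 and 81.0 at ZT4 and 80.3, 77.1, 75.9 and 87.9 at ZT8. The later libraries had 69.2, 79.8, 76.3 and 64.7 CPM at ZT12, 49.7, 50.6, 48.4 and 60.3 at ZT16, 46.8, 72.5, 70.5 and 66.5 at ZT20 and 68.6, 71.8, 84.4 and 56.2 at ZT24. The 4 libraries of ZT16 lay below all those of ZT0 to ZT12. Its peak-to-trough was 0.62 ± 0.12 with a peak at ZT4.60 ± 0.672 h (adjusted p = 0.000932), against 0.07 in NRF (adjusted p of the difference = 0.0496). Hnrnpa3, an hnRNP, had 174, 183, 165 and 188 CPM at ZT8 and 108, 99.4, 101 and 134 at ZT16, with no overlap, a peak-to-trough of 0.61 ± 0.15 and a peak at ZT6.27 (adjusted p = 0.00768).

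Of 48 chromatin regulators 30 were rhythmic, 16 from ZT4 to ZT8 and 0 from ZT14 to ZT18 (also 0 at an unadjusted p under 0.05 in limma). The next 2 genes were chosen after their values were seen. Chd1, a remodeller that moves nucleosomes in transcribed genes, had 18.3, 19.7, 19.3 and 23.3 CPM at ZT8 and 13.3, 11.4, 9.19 and 15.6 at ZT16. These groups did not overlap, and the peak-to-trough was 0.71 ± 0.16 at ZT5.66 (adjusted p = 0.00381; of the difference from NRF, 0.0131). Atrx, a remodeller of repeat chromatin, had 49.7, 50.5, 37.6 and 54.8 CPM at ZT8 and 13.1, 38.1, 35.5 and 32.3 at ZT20. Replicate 1 of ZT20, one of the libraries that stood apart, was the lowest of these. The peak-to-trough of Atrx was 0.77 ± 0.23 (adjusted p = 0.0227), and without that library the adjusted p was 0.0543.

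Zinc finger genes with numbered Zfp names, mostly DNA-binding factors of little-known role, were 322 in number and 139 were rhythmic, 71 from ZT4 to ZT8 and 8 from ZT14 to ZT18. Smaller lists leaned the same way by count. The nuclear pore had 6 of 26 members from ZT4 to ZT8 and 0 from ZT14 to ZT18, where 1 passed at an unadjusted p under 0.05 in limma. The corresponding counts were 9 and 2 of 39 for ribosome assembly factors, 8 and 4 of 41 for heat shock proteins and cochaperones, and 8 and 1 of 34 for interferon-inducible genes. All these shares are read against 10.6% and 11.6% of all tested genes. Scaled to total reads, 142 Zfp genes and 15 ribosome assembly factors were called from ZT4 to ZT8, where 21.8% of all tested genes were.

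Sterol synthesis and control, which supplies cholesterol, had 7 of 24 members from ZT4 to ZT8 and 2 from ZT14 to ZT18. Sqle and Stard4 were chosen after their values were seen. Sqle, the squalene epoxidase of that route, had 6.81, 4.23, 3.18 and 2.33 CPM at ZT4, 3.67, 3.87, 4.83 and 4.29 at ZT8 and 1.354, 1.16, 2.62 and 1.42 at ZT20. The 4 libraries of ZT8 lay above those of ZT20, and the peak-to-trough was 1.07 ± 0.18 at ZT7.77 (limma adjusted p = 0.000255). In NRF it was 0.60 at ZT2.56 (adjusted p of the difference = 0.00115). Stard4, an intracellular sterol carrier, had a peak-to-trough of 0.75 ± 0.12 at ZT6.02 (adjusted p = 0.000101). With the gene-length and GC trends of the libraries removed, 6.87% of all tested genes were called from ZT4 to ZT8. Beside that share stood 7 of 24 sterol genes, 11 of 48 chromatin regulators, 36 of 322 Zfp genes and 4 of 30 SR proteins and hnRNPs.

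Transcripts that peaked from ZT14 to ZT18 included larger single rhythms. Nmb, the neuropeptide neuromedin B, had 2.32, 2.11, 2.05 and 1.79 CPM at ZT0, 1.40, 1.73, 1.47 and 1.47 at ZT4 and 1.25, 1.999, 1.73 and 2.20 at ZT8. At night it had 3.93, 3.87, 3.65 and 6.49 CPM at ZT12, 3.57, 7.24, 6.22 and 7.20 at ZT16, 3.76, 3.74, 3.05 and 4.90 at ZT20 and 2.29, 2.58, 1.53 and 1.66 at ZT24. The 4 libraries of ZT12, of ZT16 and of ZT20 all lay above those of ZT0, ZT4, ZT8 and ZT24. Its peak-to-trough was 1.51 ± 0.13 with a peak at ZT16.0 ± 0.319 h (limma adjusted p = 1.19e-08), against 1.21 at ZT15.1 in NRF (adjusted p of the difference = 0.336). Glul, glutamine synthetase, had 207, 209.8, 173 and 270.3 CPM at ZT4 and 629, 961, 575 and 785 at ZT16. No library of ZT16 was as low as any of ZT4. The peak-to-trough of Glul was 1.54 ± 0.22 at ZT17.9 (adjusted p = 2.57e-05), and in NRF 1.92 at ZT15.8 (adjusted p of the difference = 0.0099).

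Prima1, which anchors acetylcholinesterase in membranes, had 12.6, 11.5, 10.2 and 13.5 CPM at ZT8 and 56.3, 92.1, 77.2 and 104 at ZT16, without overlap. Its peak-to-trough was 2.26 ± 0.28 at ZT17.2 in DRF (limma) and 2.72 at ZT17.4 in NRF. The largest value of the window was that of Odf3l2, 3.02 ± 0.54 at ZT17.9 (adjusted p = 0.000501), with 1.25, 2.82, 0.699 and 2.57 CPM at ZT8 and 16.3, 41.6, 22.5 and 63.0 at ZT16. Angptl7, a secreted angiopoietin-like protein, had 2.08 ± 0.41 at ZT15.8 in DRF and 3.46 at ZT15.5 in NRF. For Prima1, Odf3l2 and Angptl7 the adjusted p of the difference between regimens was 0.62, 0.533 and 0.139.

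**Figure D2:**
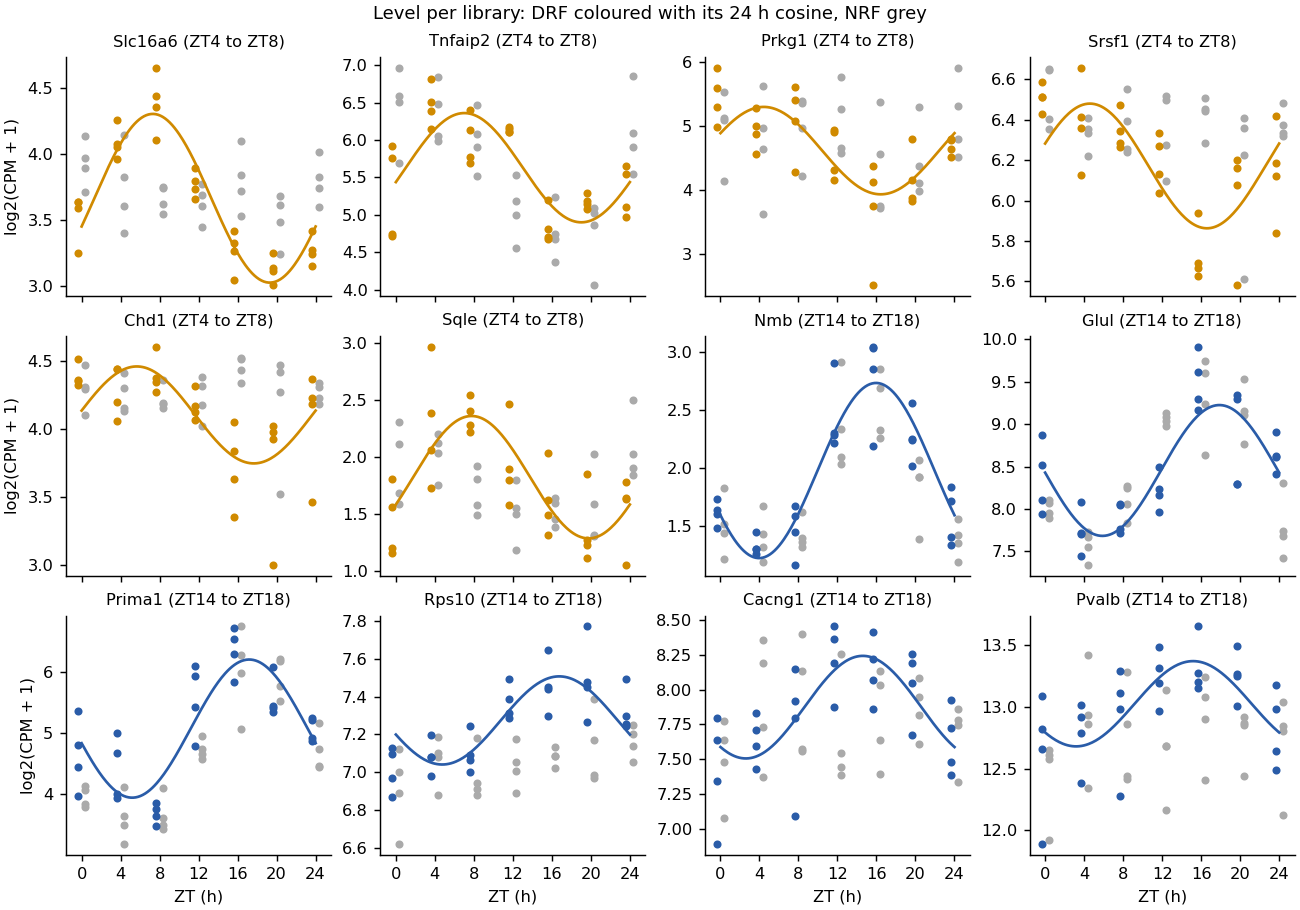
Level of 12 genes in each library, as log2(CPM + 1) against time of sampling (ZT, hours), with DRF libraries and their fitted cosine in colour and NRF libraries in grey beside them. Slc16a6 to Sqle peak from ZT4 to ZT8 in DRF, and Nmb to Pvalb from ZT14 to ZT18.

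Most genes of the cytosolic ribosome were called from ZT14 to ZT18. Of 80 tested genes of cytosolic ribosomal proteins, 66 were rhythmic with a peak from ZT14 to ZT18, 2 were rhythmic with other peaks and 0 peaked from ZT4 to ZT8 (also 0 at an unadjusted p under 0.05 in limma). The 66 rhythms were shallow and alike, with peak-to-trough values between 0.21 and 0.46 and a median of 0.33. Counts of 9 of them were not whole numbers, a sign of reads shared with copies such as pseudogenes, and these are uncertain. Rps10, a protein of the small subunit, had 136, 124, 116 and 139 CPM at ZT0, 126, 146, 134 and 134 at ZT4 and 151, 133, 127 and 135 at ZT8. From ZT12 it had 167, 155, 158 and 179 CPM at ZT12, 174, 173, 199 and 156 at ZT16, 217, 177, 153 and 174 at ZT20 and 152, 156, 151 and 179 at ZT24. The 4 libraries of ZT12 and of ZT16 lay above all those of ZT0, ZT4 and ZT8, and the highest value was that of replicate 1 at ZT20. All 4 libraries of ZT24 also lay above those of ZT0, the same time of day, so the level did not return. The peak-to-trough of Rps10 was 0.46 ± 0.09 (1.38-fold) with a peak at ZT16.8 ± 0.647 h (adjusted p = 0.000685).

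Rps15, another small-subunit protein, had 252, 241, 195 and 244 CPM at ZT0 and 314, 306, 353 and 269.7 at ZT16, with a peak-to-trough of 0.44 ± 0.10 (limma adjusted p = 0.00308; of the difference from NRF, 0.0455). At ZT24 Rps15 had 265, 274, 286 and 327 CPM, all above the libraries of ZT0. The same held for Rplp1, with 261.2 to 322.9 CPM at ZT24 and 193.6 to 260.9 at ZT0. Rplp1, an acidic protein of the large-subunit stalk, had 0.40 ± 0.10 at ZT16.9 (adjusted p = 0.00591), but 0.15 with both library trends removed (adjusted p = 0.153). In NRF 0 of the 80 ribosomal genes passed the rhythm test in limma, 1 passed at an unadjusted p under 0.05, and 38 had a fitted peak from ZT14 to ZT18. The rhythm itself differed between regimens for 1 of the 80, Rps15, beside 13.1% of all tested genes. Scaled to total reads, 6 of the 80 were called from ZT14 to ZT18, beside 1.89% of all tested genes. With both library trends removed 49 were, beside 10% of all tested genes, and without ZT0 37. With an added linear trend in time 8 of the 80 were called there, beside 608 of the 11995 tested genes.

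The promoters of ribosomal protein genes are known for a run of pyrimidines at the start site (the TOP motif), which couples their translation to nutrient signalling. The sequences of 4 genes of the crowd that begin with such a run are shown, 40 bases before and 20 bases from the RefSeq start (GRCm38.p6), with the run from the start base in capitals.
Rps10 (chr17:27635225-27635284, - strand): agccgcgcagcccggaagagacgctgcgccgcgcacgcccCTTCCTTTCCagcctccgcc
Fau (chr19:6057907-6057966, + strand): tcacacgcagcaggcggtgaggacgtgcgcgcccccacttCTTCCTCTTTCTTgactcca
Rplp2 (chr7:141447611-141447670, + strand): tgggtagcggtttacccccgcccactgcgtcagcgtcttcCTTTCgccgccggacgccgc
Rps18 (chr17:33955646-33955705, - strand): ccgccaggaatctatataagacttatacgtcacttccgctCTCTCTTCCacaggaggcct
Srsf1 and Hnrnpa3 of the ZT4 to ZT8 crowd are shown beside them. They have no pyrimidine at the start base itself, but a pyrimidine run begins 1 base after it in each. The first C of that run lies 1 base after the start in Hnrnpa3 and 2 bases after it in Srsf1.
Srsf1 (chr11:88047333-88047392, + strand): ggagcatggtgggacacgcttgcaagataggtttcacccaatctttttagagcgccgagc
Hnrnpa3 (chr2:75659219-75659278, + strand): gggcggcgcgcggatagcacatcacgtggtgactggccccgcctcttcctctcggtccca
A C followed by 4 pyrimidines began at the start base in 14 of 59 ribosomal promoters in the table (23.7%), beside 3.05% of the 9585 tested genes with a promoter, and within 3 bases of it in 44.1% and 15.2%. That match describes letters and is no evidence of control by time.

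Other lists of protein synthesis and turnover peaked in the same window in part. Of 38 translation initiation factors 11 did, and 5 peaked from ZT4 to ZT8. Eif3k and Eif3f, chosen after their values were seen, had peak-to-trough values of 0.39 and 0.39 (limma adjusted p = 0.00214 and 0.00224). Of 37 proteasome subunits, which degrade tagged proteins, 12 peaked from ZT14 to ZT18 and 2 from ZT4 to ZT8. The 12 were 2 without replicate 3 of ZT16, 7 without replicate 4 of ZT12, 7 without replicate 1 of ZT20 and 4 with both library trends removed. Vesicle coats had 13 of 39 members from ZT14 to ZT18, 8 without replicate 3 of ZT16, and aminoacyl-tRNA synthetases had 5 of 20, 1 without it. Mitochondrial import had 6 of 23 (3 without it). The Sm and Lsm proteins of the spliceosome had 6 of 22 (3 with both trends removed, where 10% of all tested genes were called). Scaled to total reads, calls of these lists lay mostly in the other window, near the shares of all tested genes. Those shares were 21.8% from ZT4 to ZT8 and 1.89% from ZT14 to ZT18. The calls from ZT4 to ZT8 were then 10 initiation factors, 6 proteasome subunits, 8 vesicle coat genes, 5 synthetases, 6 import genes and 4 Sm and Lsm proteins. From ZT14 to ZT18 the limma calls left were 1 vesicle coat and 1 import gene. Mitochondrial ribosomal proteins had 9 of 78, near the 11.6% of all tested genes.

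Transcripts of fast contraction and of glycolysis peaked from ZT14 to ZT18 too. Of 14 fast-fibre contractile genes 9 were called there and 0 from ZT4 to ZT8 (also 0 at an unadjusted p under 0.05 in limma), with a median peak-to-trough of 0.61 in those 9. Actn3, the alpha-actinin of fast fibres, had 7313, 8837, 8961 and 9926 CPM at ZT4 and 10974, 12516, 15410.2 and 14428 at ZT16, groups that did not overlap. Its peak-to-trough was 0.70 ± 0.18 at ZT16.1 (adjusted p = 0.00813). Pvalb, a calcium buffer that speeds relaxation, had 5333, 7072, 7719.9 and 8270.2 CPM at ZT4 and 9419, 9106, 12891 and 9930.5 at ZT16, also without overlap. Its peak-to-trough was 0.69 ± 0.17 at ZT15.2 (adjusted p = 0.00806). The adjusted p of the difference from NRF was 0.501 for Actn3 and 0.264 for Pvalb.

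Excitation-contraction coupling, by which the fibre turns an action potential into calcium release, had 9 of 29 members from ZT14 to ZT18 and 0 from ZT4 to ZT8, where 1 passed at an unadjusted p under 0.05 in limma. Cacng1, Casq1, Ldha and Pgam2 were chosen after their values were seen. Cacng1, the gamma subunit of the muscle calcium channel, had 198, 161, 118 and 222 CPM at ZT0 and 349.9, 233, 291 and 329 at ZT12, and all 4 libraries of ZT12 lay above those of ZT0. Its peak-to-trough was 0.74 ± 0.15 at ZT14.6 (adjusted p = 0.00172). Casq1, the calcium store of the sarcoplasmic reticulum, had 0.68 ± 0.14 at ZT14.7 (adjusted p = 0.00149). Glycolysis and glycogen genes had 13 of 34 members from ZT14 to ZT18, 2 from ZT4 to ZT8, and 8 from ZT14 to ZT18 without replicate 3 of ZT16. Scaled to total reads, 5 glycolysis and glycogen genes and 5 coupling genes were called from ZT14 to ZT18, beside 1.89% of all tested genes. With both trends removed there were 6 coupling genes, beside 10% of all tested genes. Ldha, lactate dehydrogenase A, had 2374, 3402, 3253 and 3221 CPM at ZT4 and 3617, 3987, 4909 and 4109 at ZT16, without overlap, and a peak-to-trough of 0.54 ± 0.12 (adjusted p = 0.00263). Pgam2, the muscle phosphoglycerate mutase, had 0.51 ± 0.11 (adjusted p = 0.0022).

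The muscle fibre markers moved with these lists. They are 8 genes of the fast fibre, 7 of which were called from ZT14 to ZT18, and their summed level had a range of 115217 to 191580 CPM at ZT0, 202598 to 264890 at ZT16 and 148295 to 206135 at ZT24. Some of them are also members of the fast-fibre list. Of 7 macrophage markers 3 were called in the same window, with summed levels of 64.3 to 112 CPM at ZT0 and 90.4 to 193 at ZT20, and none with the library trends removed, where the muscle fibre markers had 4 calls. Of 6 fibroblast markers 2 were called there, and 3 with the library trends removed, with summed levels of 1179 to 1702 CPM at ZT4 and 1976 to 2345 at ZT16. Libraries scaled to total reads left no macrophage or fibroblast call in that window, where 1.89% of all tested genes were called. Adipocyte, red blood cell and Schwann cell markers had 0 calls in limma, with 0, 0 and 0 members in either window at an unadjusted p under 0.05, and the 5 endothelial calls peaked outside both windows. The part of these markers in the list counts was not tested.

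**Figure D3:**
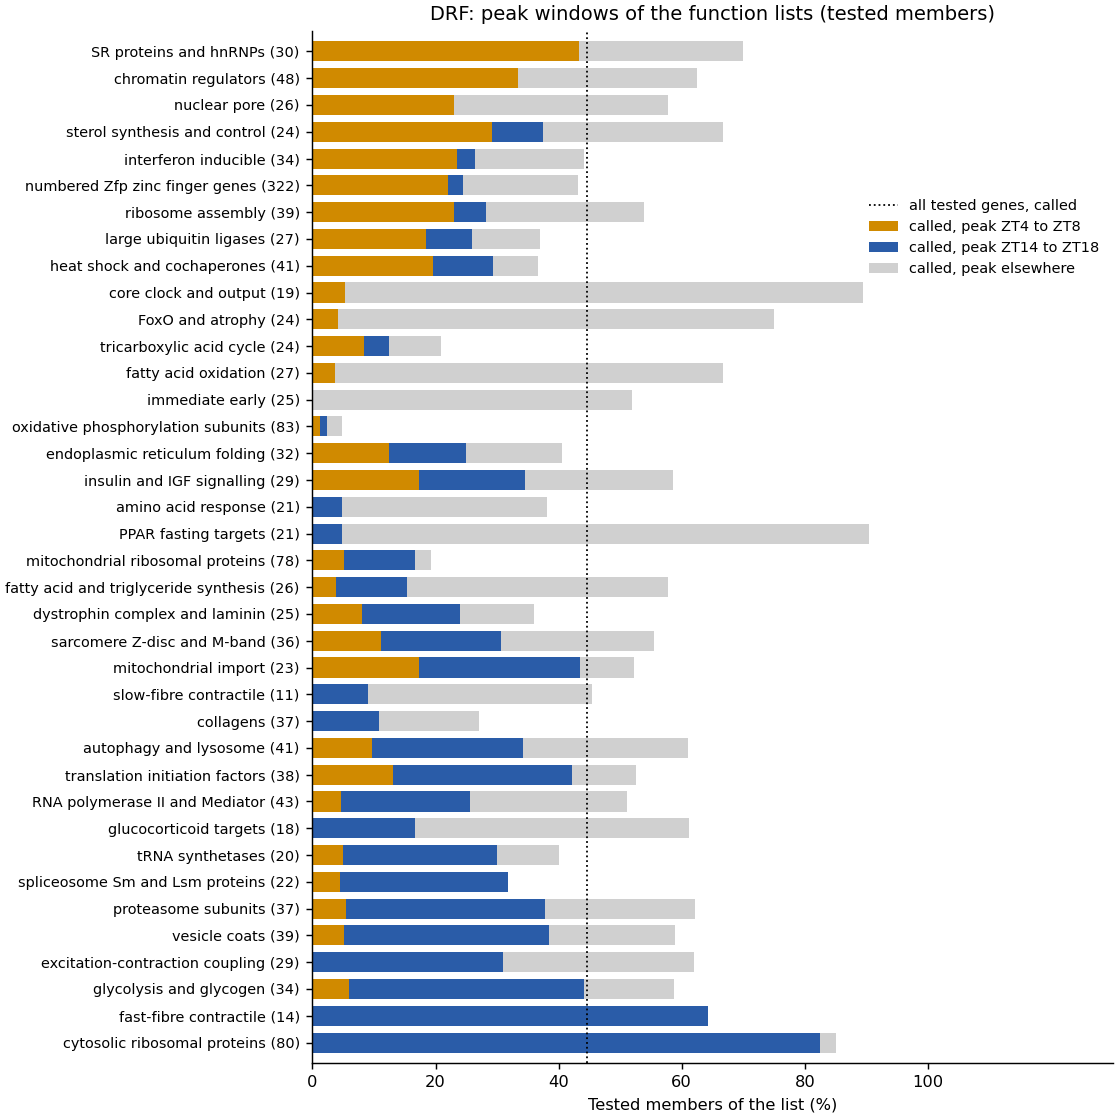
Percent of the tested members of each function list (number tested in brackets) that passed the DRF 24 h test, split by fitted peak from ZT4 to ZT8, from ZT14 to ZT18 and elsewhere. The dotted line marks the 44.6% of all tested genes. The ZT14 to ZT18 colour covers 82.5% of ribosomal and 64.3% of fast-fibre genes, the ZT4 to ZT8 colour 43.3% of SR proteins and hnRNPs and 33.3% of chromatin regulators, and most clock and PPAR genes peak elsewhere.

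Genes of the clock and of fasting were rhythmic but lay outside both crowds. Of 19 core clock and output genes 17 were rhythmic and 1, Nr1d1, peaked in a window. Of 21 PPAR fasting targets 19 were rhythmic and 1 peaked in a window, of 24 FoxO and atrophy genes 18 and 1, and of 27 fatty acid oxidation genes 18 and 1. Among genes with whole-number counts, the 4 largest rhythms outside the windows were those of Pdk4 (6.24 at ZT22.7), Angptl4 (4.44 at ZT21.8), Ucp3 (3.57 at ZT22.0) and Slc25a34 (3.08 at ZT1.76), all transcripts tied to fasting fuel use or mitochondrial transport. Each exceeds the largest peak-to-trough of the ZT14 to ZT18 crowd, as does Dbp with 4.26. Oxidative phosphorylation subunits were mostly not called: 4 of 83 passed the test, and of 24 tricarboxylic acid cycle genes 5 did, beside 44.6% of all tested genes.

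The crowds differed in the genes they held by length and composition. The median gene length used by the authors (the summed exons of a gene) was 6045.5 bases in the 1268 ZT4 to ZT8 genes (quartiles 4099 and 9177) and 3096 bases in the 1389 ZT14 to ZT18 genes (2006 and 4869), beside 4497 in all tested genes. The ratio of the medians was 1.95. Above the median length of all tested genes lay 69.0% of the ZT4 to ZT8 genes and 29.7% of the ZT14 to ZT18 genes. Transcript GC content differed as well, with medians of 43.3% and 53.6%, beside 49.8% in all tested genes, and 12.2% and 75.1% of the genes lay above the median of all. Coding length (1680 against 966 bases), the 3′ UTR (2063 against 727), exon number (12 against 8) and genomic span (38114 against 13608 bases) had larger medians in the ZT4 to ZT8 genes. The median level was 19.9 CPM in the ZT4 to ZT8 genes and 43.0 CPM in the ZT14 to ZT18 genes, beside 16.9 CPM in all tested genes.

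Across 10 equal classes of gene length the share of tested genes called from ZT4 to ZT8 was higher in longer genes and the share called from ZT14 to ZT18 was lower. In the longest class (10033 to 123179 bases) 21.8% of genes were called from ZT4 to ZT8 and 3.33% from ZT14 to ZT18, and in the shortest class (216 to 1739 bases) 3.67% and 21.7%. Across 10 classes of GC content the shares were 1.76% and 20.9% in the highest class (57.9% to 72.8% GC) and 35.3% and 1.76% in the lowest (31.0% to 41.4%). Length and GC content are themselves related, so each was compared within 3 equal classes of the other. Within classes of GC from low to high, the median length was 6206.5, 5865 and 5412.5 bases in the ZT4 to ZT8 genes and 4268.5, 3537 and 2790 bases in the ZT14 to ZT18 genes. Within classes of length from short to long, median GC was 44.3%, 43.3% and 42.9% in the ZT4 to ZT8 genes and 54.6%, 53.0% and 51.7% in the ZT14 to ZT18 genes.

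**Figure D4:**
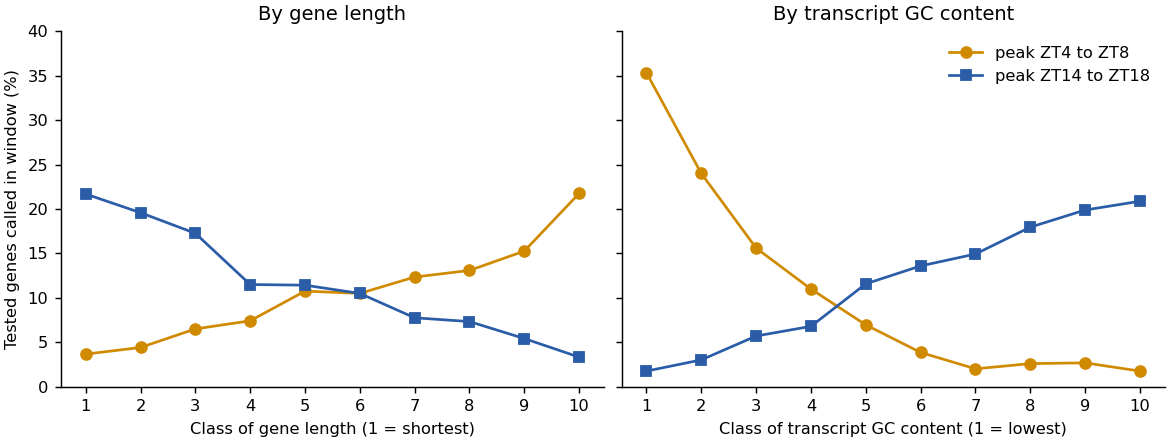
Percent of tested genes called from ZT4 to ZT8 and from ZT14 to ZT18 in DRF, by 10 equal classes of gene length on the left and of transcript GC content on the right. Shares for ZT4 to ZT8 run from 3.67% in the shortest to 21.8% in the longest class, and from 35.3% at the lowest to 1.76% at the highest GC.

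The composition of the promoter was not ordered in this way. Over 250 bases before to 50 after the RefSeq start, median GC was 62% in the 1027 ZT4 to ZT8 genes and 61% in the 1118 ZT14 to ZT18 genes with a promoter in the table. The sequences shown above hold an example each: the promoter and transcript of Srsf1 had 58.3% and 40.6% GC, and those of Rps10 had 72.3% and 60.3%. Motifs of known daily or growth control, searched on both strands, were held by the following shares of the window genes. The E-box CACGTG, bound by CLOCK and ARNTL, was in 12.0% of ZT4 to ZT8 and 11.9% of ZT14 to ZT18 promoters, beside 11.9% of all tested. The D-box TTATGNAA, bound by DBP, was in 2.04% and 2.42%, beside 2.45%, and the cAMP response element TGACGTCA in 3.51% and 3.76%, beside 3.54%. The ETS motif CCGGAAGT was in 9.15% and 11.0%, beside 9.07% of all and 20.3% of ribosomal promoters.

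The longest genes of the ZT4 to ZT8 crowd were Ankrd17, Ank2 and Phip. Ank2, which links membrane proteins to the spectrin skeleton and lies at chr3:126921607-127500347, is 35004 bases long and had 49.8, 47.7, 43.6 and 42.7 CPM at ZT4 and 18.7, 25.9, 20.6 and 20.1 at ZT20. These groups did not overlap, and the peak-to-trough was 1.06 ± 0.16 at ZT5.06 (limma adjusted p = 7.59e-05), against 0.96 at ZT7.29 in NRF (adjusted p = 0.00163). Ankrd17, an ankyrin-repeat protein of 35542 bases, had 0.45 ± 0.11 (adjusted p = 0.00976), and Phip, a bromodomain protein of 33312 bases, had 0.70 ± 0.21 (adjusted p = 0.0304). The call of Phip ended without replicate 1, 2 or 3 of ZT16, with an adjusted p of up to 0.0877. The shortest genes of the ZT14 to ZT18 crowd at 10 CPM or more were Rplp1 (499 bases), S100a11 (511) and Rps15 (630). S100a11, a small calcium-binding protein, had a peak-to-trough of 0.42 ± 0.13 (adjusted p = 0.0306) and lost its call without replicate 1 or 2 of ZT16, with an adjusted p of up to 0.0736. The adjusted p of S100a11 was 0.0574 without the 2 libraries that stood apart and 0.247 with both trends removed.

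The trend with length was measured once per library, as the mean log2 deviation of the 20% longest genes minus that of the 20% shortest. In DRF it averaged 0.14 ± 0.08, 0.07 ± 0.06, 0.10 ± 0.06, -0.02 ± 0.07, -0.11 ± 0.12, -0.12 ± 0.21 and -0.05 ± 0.13 from ZT0 to ZT24 (SD, n = 4 each). All 12 libraries of ZT0, ZT4 and ZT8 were above 0, the lowest at 0.0012, and 3 of 4 at ZT12, ZT16 and ZT20 were below it. A 24 h cosine took 32.0% of its variance, with a peak-to-trough of 0.24 at ZT5.22 (permutation test over libraries, p = 0.00557, adjusted over 8 tests 0.0407). With an added linear trend in time it was 0.14 (permutation p = 0.191). The crowds were known from these same libraries beforehand, so the p-values of the DRF measures are no independent support for them. In NRF the peak-to-trough of the length measure was 0.05 (permutation p = 0.605, adjusted 0.691), and the difference between regimens did not pass (permutation p = 0.102, adjusted 0.137). The same measure for GC content, highest minus lowest 20%, had a DRF peak-to-trough of 0.37 at ZT18.1 (permutation p = 0.0102, adjusted 0.0407) and 0.05 in NRF (permutation p = 0.914, adjusted 0.914), with a permutation p of 0.0990 for the difference (adjusted 0.137).

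Across the 28 DRF libraries the measures mirrored each other, with a Pearson r of -0.878 as a description. Within the 3 classes of GC content the length measure still had peak-to-trough values of 0.19, 0.16 and 0.15, and within those of length the GC measure had 0.26, 0.33 and 0.40. The same time of day did not return the same value: ZT24 exceeded ZT0 by 0.28 in the GC measure and by -0.18 in the length measure (exact permutation test, two-sided, p = 0.0286 for each, adjusted 0.0571, and the smallest p that 4 against 4 allows). The labels give no preparation batch or RNA quality value, and the part of length and GC trends between libraries in the crowds was not tested beyond the counts that follow.

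**Figure D5:**
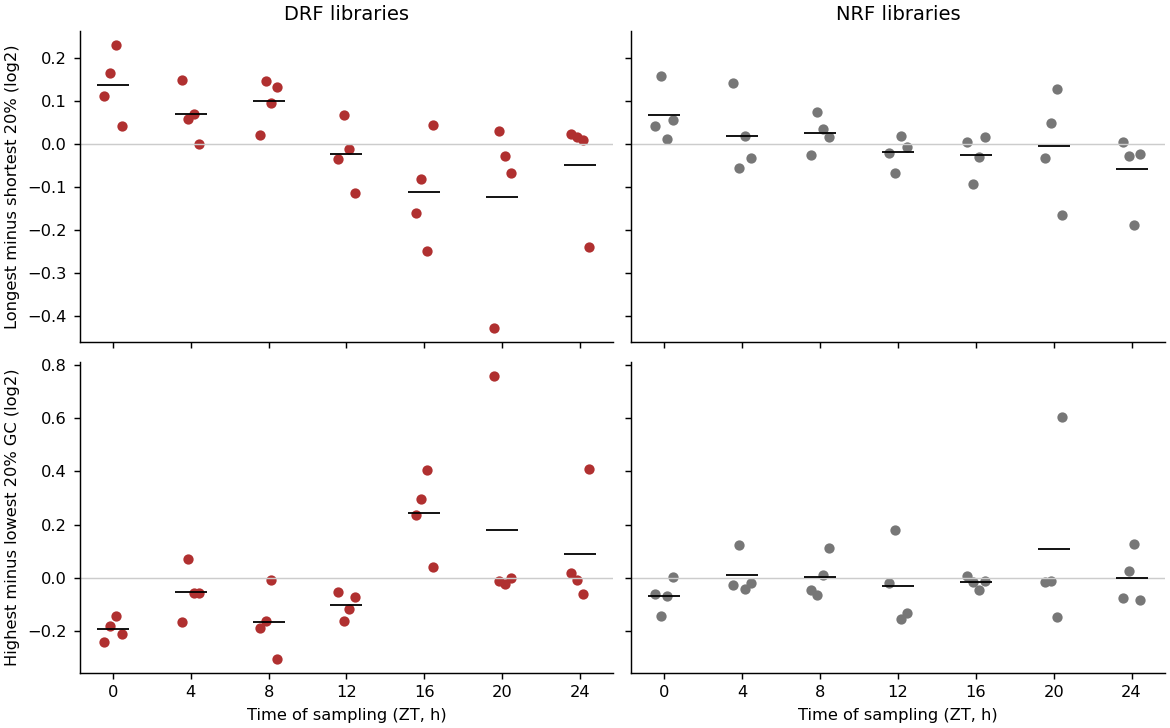
Longest minus shortest 20% of genes (top) and highest minus lowest 20% in GC content (bottom), mean log2 deviation per library against time of sampling (ZT, hours), DRF on the left and NRF on the right, with group means as bars. The DRF length measure averages 0.14 at ZT0 and -0.12 at ZT20, where replicate 1 lies at -0.43.

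Removing each library's trend with length and GC content left 4915 rhythmic genes (41% of those tested), 824 from ZT4 to ZT8 (6.87%) and 1205 from ZT14 to ZT18 (10%). Of the 1268 ZT4 to ZT8 genes 788 were still rhythmic and 616 (48.6%) still in the window, and of the 1389 ZT14 to ZT18 genes 1021 and 851 (61.3%). The windows in that fit had nearly the same median length, 4557.5 and 4476 bases, and median GC of 48.1% and 49.4%. That likeness follows from the removal itself, which takes out the link of level to length and GC, and it tests nothing. With the length trend alone removed, 896 (70.7%) and 1127 (81.1%) stayed in their window, and with the GC trend alone 651 (51.3%) and 932 (67.1%). Without the 2 libraries that stood apart, 1000 (78.9%) and 1272 (91.6%) stayed, with replicate 3 of ZT16 still included. SR proteins and hnRNPs had 4 of 30 members from ZT4 to ZT8 with both trends removed, ribosomal proteins 49 of 80 and fast-fibre genes 6 of 14 from ZT14 to ZT18.

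NRF libraries, which took no part in choosing the windows, had fewer rhythmic genes in these windows. There 1723 genes passed (14.4%), of which 193 peaked from ZT4 to ZT8 (1.61% of the tested genes) and 307 from ZT14 to ZT18 (2.56%). Of the DRF ZT4 to ZT8 genes 170 were rhythmic in NRF (13.4%, beside 14.4% of all), 28.6% had their NRF fitted peak in the same window, beside 15.3% of all tested genes, and the median NRF peak-to-trough was 0.16. Of the ZT14 to ZT18 genes 146 were rhythmic in NRF (10.5%), 45.9% had their NRF peak in the window, beside 19.6% of all, and the median was 0.12. The fitted peaks of the regimens lay within 4 h for 54.7% of the ZT4 to ZT8 genes and 74.0% of the ZT14 to ZT18 genes, beside 54.1% of all. Most genes of the crowds missed the NRF test, so these peaks are loosely placed. The test that the rhythm differs between regimens passed for 357 of the ZT4 to ZT8 genes (28.2%) and 136 of the ZT14 to ZT18 genes (9.79%), beside 13.1% of all. As DRF values enter that test and also chose the genes, these shares are a description.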

How the data were processed

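Polyadenylated RNA was copied from random hexamers and read as paired ends of 100 bases on a BGISEQ-500, per the labels' protocols. No strand-marking step is named, so antisense reads count with the gene. RSEM, HISAT2 and Bowtie2, with the builds mm10 and GRCm38.p6, are listed in the submitters' processing notes without versions. The table that the authors deposited under the heading TPM holds a score: the log2 of 1 plus reads per 1000000 of a library size, divided by gene length and rescaled per library. That formula was inferred from the values and inverted. Counts were recovered for 17443 of 19072 genes (15442 whole within 0.02 read in 90% of values, 2001 with decimals); 1629 genes with fewer than 4 values above 0 were left out. Of 2227 genes with 1 annotated length, 1829 gave whole reads without a choice of length. The design had assumed TPM or CPM; CPM were used.

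Genes with a mean of at least 1 CPM over the 28 DRF libraries were fitted as log2(CPM + 1), which understates the change of low genes, with a cosine and a sine of 24 h (limma 3.58.1 in R 4.3.3, lmFit and eBayes with a trend). Moderated F tests were adjusted by Benjamini-Hochberg over 11995 genes at 0.05. The NRF libraries were fitted likewise, and the difference of rhythms in a fit of all 56. Cosine tests of the library measures used 100000 permutations of the time labels, and 20000 in the alternatives. Their difference between regimens used 100000 permutations of regimen within each time, and ZT24 against ZT0 an exact test. Python 3.11.15 with numpy 2.4.6, pandas 2.3.3, scipy 1.17.1, numba 0.67.0 and matplotlib 3.10.9 did the rest. Recovery and tests were checked on simulated data.

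Named by rule were the 6 largest peak-to-trough values in each window and the 4 largest elsewhere, without decimal counts; 1 of them is not reported here. The rule added the 3 longest called ZT4 to ZT8 genes and the 3 shortest ZT14 to ZT18 genes of at least 10 CPM, 2 members of each list with 40% or more called in 1 window, and 4 clock genes. The windows, members and the 38 function and 9 marker lists were chosen with earlier results of these data known. Promoter sequences came from RefSeq tables (GRCm38.p6), matched by gene ID for 9585 tested genes (79.9%). As this is under 80%, promoter GC was compared between the windows alone. Alternatives covered pseudocount, filter, scaling, unit, times, curve form, library trends, weights, covariates and each library left out.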

Additional observations from a re-analysis of the deposited data

Results flagged for a closer look

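In 224 groups of 4 DRF libraries (the levels of 30 named genes and 2 library measures by time), 14 had a library far from the other 3, where chance gives about 1 in 20. The gap over the range of the group is given for each, taken on log2(CPM + 1) for genes, with levels shown in CPM. For Slc16a6 it was 0.882 at ZT0 (replicate 1 at 8.52 CPM, the others at 11.1 to 11.5) and for Prima1 0.885 at ZT20 (replicate 4 at 66.6, the others at 39.8 to 42.2). For Nmb it was 0.876 at ZT12 (replicate 4 at 6.49, the others at 3.65 to 3.93). Pdk4 had 0.920 at ZT4 (replicate 3) and 0.885 at ZT24 (replicate 2 at 1081 CPM, the others at 3320.0 to 3838), where Slc25a34 had 0.872 in the same library. Ankrd17 had 0.914 at ZT0 (replicate 4), Rplp1 0.835 at ZT24 (replicate 4), Rps15 0.833 at ZT0 (replicate 3) and 0.868 at ZT4 (replicate 1), and Nr1d1 0.837 at ZT12 (replicate 3). Hnrnpa3 had 0.908 at ZT20, with replicate 1 at 74.5 CPM and the others at 141 to 151. The library measures had 0.950 for length at ZT24 (replicate 4 at -0.24) and 0.969 for GC content at ZT20 (replicate 1 at 0.76).

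The rhythm differed between DRF and NRF for 12 of the 30 genes named by rule, by limma adjusted p, beside 13.1% of all tested genes. DRF values chose most of these genes and also enter that test, so the count is a description. The adjusted p was 6.22e-04 for G0s2, 0.00333 for Tnfaip2, 4.65e-07 for Slc16a6 and 0.00990 for Glul. Outside the windows it was 1.76e-06 for Pdk4, 2.09e-05 for Angptl4, 2.57e-08 for Ucp3 and 0.00328 for Slc25a34. Rps15 (0.0455), Srsf1 (0.0496), Arntl (0.0279) and Nr1d1 (7.56e-05) were the others.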

How the results depend on the processing

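Leaving out 1 library at a time, 4406 to 5527 genes were rhythmic, 989 to 1359 from ZT4 to ZT8 and 982 to 1465 from ZT14 to ZT18. Median lengths ran from 5847.5 to 6218 bases for ZT4 to ZT8 genes and from 2928 to 3216 bases for ZT14 to ZT18 genes. These ranges did not overlap. The length measure ran from 0.19 to 0.27. Window counts ran from 11 to 14 for SR proteins and hnRNPs, 51 to 73 for ribosomal proteins and 8 to 10 for fast-fibre genes. Reversal of a count or of a median length was not tested. An added linear trend in time gave 3072 rhythmic genes, 421 and 608 in the windows with median lengths of 5265 and 3577.5 bases, 8 ribosomal, 5 SR and hnRNP and 4 fast-fibre genes, and a length measure of 0.14 (permutation p = 0.191). ZT0 and ZT24 are 1 time of day, so that trend takes part of the cosine. Total-read scaling gave 2612 and 227 genes in the windows and 6 ribosomal genes. The deposited score gave 918 genes from ZT14 to ZT18, 39 ribosomal and 4 fast-fibre genes, no filter 4 fast-fibre genes, and leaving out ZT0 37 ribosomal genes. Without ZT24 the rhythm differed between regimens for 86 ZT14 to ZT18 genes.

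With the length trend removed the median lengths were 4647 and 4428.5 bases, with the GC trend removed 3578 from ZT14 to ZT18 and 3 SR and hnRNP genes, and with both 824 genes from ZT4 to ZT8, 4557.5 and 4476 bases and 4 SR and hnRNP genes. With both trends and 2 libraries left out, alternatives chosen after the data were seen, there were 799 genes from ZT4 to ZT8, 4730 and 4476 bases and 5 SR and hnRNP genes. Where the length trend was removed, the removal itself draws the median lengths together. Windows narrowed by 1 h held 702 and 842 genes and 7 SR and hnRNP genes. A peak-to-trough of at least 0.5 left 567 and 233 genes, a median of 6644 bases from ZT4 to ZT8, 5 SR and hnRNP and 0 ribosomal genes. By genomic span the medians were 38114 and 13608 bases. Except as named, the cause was not tested.

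The replicate number does not pair the libraries: deviations of same-numbered libraries had a median correlation of 0.00, from -0.51 to 0.68, with 26 of 84 pairs over 0.1. As a replicate block it gave 5076 rhythmic genes, 1183 and 1337 in the windows. The block with the length trend removed gave median lengths of 4545 and 4434 bases and 43 ribosomal genes. Depth limits rhythms of genes near 1 CPM, and 4 libraries a time limit where a peak is placed. Named genes whose call ended under total-read scaling were Rplp1, S100a11, Timm17b, Psmc4, Lsm10, Snrpb, Kars and Ap1s1. With both trends removed those of Rplp1, S100a11 and Lsm10 ended. With the added linear trend the calls of G0s2, Ankrd17, Phip, Rplp1, S100a11, Rps15, Hnrnpa3, Actn3, Timm17b, Psmc4, Eif3k, Eif3f, Qars, Kars, Atrx and Chd1 ended, with limma adjusted p from 0.0536 (Qars) to 0.350 (Kars).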
